A study of Sus scrofa with 6 samples.

Results

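Histone deacetylases (HDACs) were examined in porcine granulosa cells (GCs), the steroid-producing cells of the ovarian follicle, with and without overexpression of *RBP4*, the plasma carrier of retinol. The genes were found by symbol in the deposited expression table. Of its 17950 genes, 10 carried the name of a member, namely *HDAC1* to *HDAC9* and *HDAC11*. The group was put together with its values in view, being chosen by the large gap between the 2 FPKM values of *HDAC9*, so the values of all members are a description and carry no test. *HDAC10* was also in the table and is given beside the members.

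The cells were primary GCs from ovaries of pre-pubertal Landrace gilts, and the ovaries came from a slaughterhouse. The CTRL group received lentivirus of the empty vector pLVX-IRES-ZsGreen, and the pLVX-*RBP4* group received the same vector with full-length porcine *RBP4*, so cells of both groups were infected and carried the fluorescent marker ZsGreen. RNA was taken after 72 h of infection from 3 libraries in each group. The table gives 1 value per gene and group in FPKM, that is, fragments scaled to transcript length and to the number of mapped fragments. Where a pair of values follows a gene below, the CTRL value comes first. The spread between libraries is not known from the table, and neither SD nor p-value could be computed for any difference.

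HDACs remove acetyl groups from lysines of histones and other proteins, which in chromatin is generally linked to lower transcription. Class I enzymes (*HDAC1*, *HDAC2*, *HDAC3*, *HDAC8*) are mostly nuclear and, apart from *HDAC8*, work inside corepressor complexes. Class IIa enzymes (*HDAC4*, *HDAC5*, *HDAC7*, *HDAC9*) have little deacetylase activity of their own, bind transcription factors of the MEF2 family, and move between nucleus and cytoplasm when kinases phosphorylate them and 14-3-3 proteins hold them. Class IIb holds *HDAC6*, a cytoplasmic deacetylase of tubulin, and *HDAC10*, a polyamine deacetylase, and class IV holds *HDAC11*, which removes fatty acyl groups. In GCs, histone acetylation at promoters of steroidogenic genes is known to change as the follicle luteinises.

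The introduced gene and the cell type were checked first. *RBP4* had 1.10 FPKM without and 92.3 FPKM with the transgene, reads of the introduced sequence included. Of 17 granulosa markers, 9 were found by symbol and all 9 had a mean of 1 FPKM or more. They summed to 1117 and 1131 FPKM, led by *CYP11A1*, which starts steroid synthesis, with 673 and 669 FPKM. *SERPINE2* had 255 and 278 FPKM, *GATA4* 59.2 and 57.8 FPKM, *WT1* 38.6 and 36.3 FPKM, and *NR5A1* 31.1 and 28.1 FPKM. Weaker were *INHA* (28.6 and 27.5 FPKM), *FST* (20.5 and 24.7 FPKM), *FSHR* (9.99 and 8.47 FPKM) and *AMHR2* (1.22 and 1.25 FPKM). The aromatase *CYP19A1* and the factor *FOXL2* were not found by symbol. Markers of other cells were present too. The 5 smooth muscle markers found summed to 2475 and 2600 FPKM. Nearly all of it was *TAGLN* (1809 and 1891 FPKM) and *ACTA2* (644 and 688 FPKM). *CNN1* had 18.6 and 19.0 FPKM, *MYH11* 2.17 and 1.54 FPKM, and *DES* 0.584 and 0.413 FPKM. The 5 stromal markers summed to 775 and 913 FPKM, most of it *COL3A1* (525 and 611 FPKM) and *DCN* (169 and 210 FPKM). The 4 leukocyte markers summed to 47.6 and 54.1 FPKM, nearly all of it *CD14*, with *PTPRC* at 0.229 and 0.166 FPKM. Endothelial markers, 2 of which were found, summed to 19.9 and 19.0 FPKM, and the 4 theca and 2 oocyte markers found summed to less than 4 FPKM in each list. The part of these cells in the values of the HDAC genes was not tested, and in bulk RNA fewer cells of a type and less RNA per cell cannot be told apart.

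*HDAC9*, a class IIa repressor of MEF2 that also gives a shorter protein without the deacetylase domain, was the most abundant member in the CTRL group, at 54.8 FPKM. After infection with pLVX-*RBP4* it had 4.32 FPKM. The CTRL value was thus 12.7 times as high, with a log2 ratio of -3.66 and a difference of -3.39 in log2(FPKM + 1), the scale used for all differences here. In the order of the members it stood at rank 1 in the CTRL group and at rank 7 in the pLVX-*RBP4* group. It was higher than 84.8% of the 12382 genes with a mean of 1 FPKM or more in the CTRL group, and higher than 22.8% of them in the pLVX-*RBP4* group. Among the 12329 of these genes that were above 0 in both groups, *HDAC9* had the most negative difference (1 gene, 0.00811%), which is the value it was chosen for. It counts as above 0 in both by its deposited value, while a second record, described below, has 0 in the pLVX-*RBP4* group. With genes listed at 0 included, 10 of the 12382 had a more negative difference, all 10 of them listed at 0 in the pLVX-*RBP4* group, and by the plain ratio 1 gene above 0 in both groups, ENSSSCG00000018682, went further, with a CTRL value 15.2 times as high. *HDAC9* (ENSSSCG00000015368) is placed on chromosome 9, from 96806465 to 96960969, of Sscrofa10.2 in the study's gene lists.

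A second record of *HDAC9* in the study differs from the deposited value. A supplementary list of genes seen in only 1 group also has a row for this identifier, and that row holds other values, with 0 in the pLVX-*RBP4* group. Of 1375 genes of that list that were compared with the deposited table, 3 had other values there, *HDAC9* among them, counting a departure beyond 0.0001 of the value, or 0.0001 FPKM for values under 1. For all 3 the deposited value was the larger in both groups. What remains of the *HDAC9* value after the amount in that row is taken away was higher in the pLVX-*RBP4* group than in the CTRL group. The direction given here for *HDAC9* therefore holds for the deposited value as a whole. Whether that value includes the amount in the second record is not known. If it does, the direction rests on that record, and all of the 4.32 FPKM with pLVX-*RBP4* lie outside it. The ratio of *HDAC9* and its place among genes above 0 in both groups thus hold for the deposited value only. How the deposited value was put together is not given in the sources used here.

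**Figure D1:**
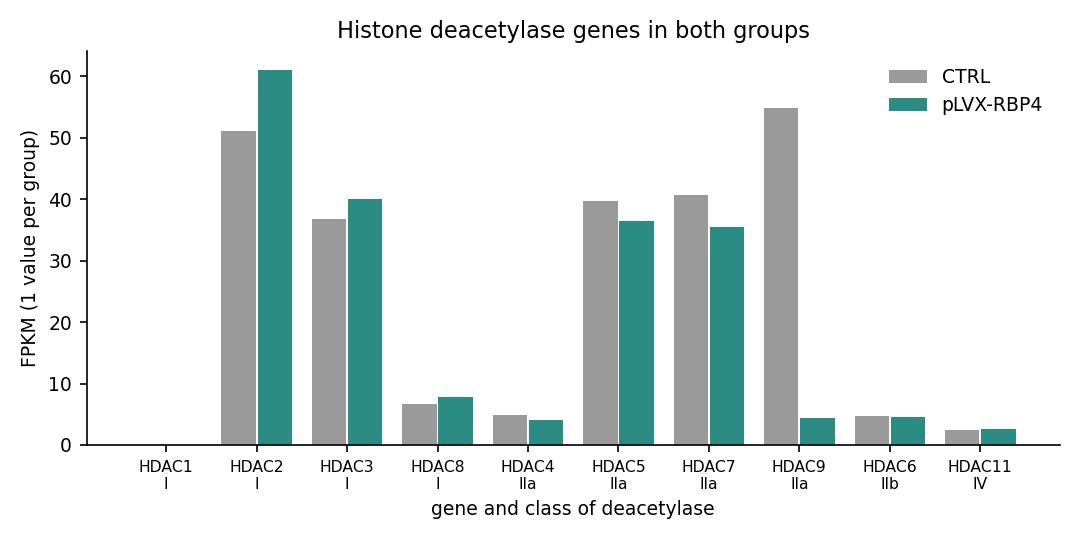
Level of each member in FPKM (vertical axis, linear from 0) in the CTRL group (grey) and the pLVX-RBP4 group (green), ordered by class. Each bar is the authors' single value for a group, so there are no error bars. HDAC9 had 54.8 and 4.32 FPKM, the other members had bars of similar height in both groups, and HDAC1 was listed at 0 in both.

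Class I genes with a value above 0 were each higher after infection with pLVX-*RBP4*, as were 50.2% of all genes with a mean of 1 FPKM or more. *HDAC2*, which forms the catalytic core of the Sin3, NuRD and CoREST complexes together with HDAC1, had 51.2 and 61.1 FPKM, a difference of 0.25. This was the second most abundant member in CTRL cells and the most abundant one in pLVX-*RBP4* cells. *HDAC3*, the deacetylase of the NCoR complex, had 36.8 and 40.1 FPKM, a difference of 0.12. *HDAC8*, which deacetylates the cohesin subunit SMC3, was weaker, with 6.72 and 7.73 FPKM and a difference of 0.18. The increases came to 19.4%, 9.03% and 15.0% of the CTRL value, and the sum of the class went from 94.7 to 109 FPKM.

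*HDAC1* (ENSSSCG00000003613) was listed at 0 in both groups. This enzyme is known as the close paralog of *HDAC2* and is made in most cell types. Only 76 of the 10757 genes with a symbol (0.707%) were listed at 0 in both groups, against 897 of all 17950 genes (5%). None of the 13 genes found from a list of 20 that every cell uses was listed at 0. In the order of genes in RefSeq (Sscrofa11.1), *HDAC1* lies after *LCK*, a kinase of T cells that was listed at 0 and at 0.0503 FPKM. The nearest protein-coding gene on its other side with a value was *BSDC1*, with 34.1 and 36.0 FPKM. The value of 0 is given as listed, and *HDAC1* is left out of all counts of higher and lower members. In the sums of the members and of class I it stands at 0.

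All 4 class IIa genes had their lower value with pLVX-*RBP4*, as had 49.8% of all genes with a mean of 1 FPKM or more. *HDAC9* is among the 4 and was chosen for its fall. With so few genes, no pattern of the class is read from this count. *HDAC7*, known for its part in blood vessels and thymocytes, had 40.7 and 35.5 FPKM, a difference of -0.19. *HDAC5*, a repressor of MEF2 in muscle and neurons, had 39.6 and 36.4 FPKM, a difference of -0.12. *HDAC4*, known for holding back the maturation of chondrocytes, was the weakest of the class, with 4.86 and 4.08 FPKM and a difference of -0.21. Apart from *HDAC9*, the decreases were 8.11% to 16.1% of the CTRL value. Class IIa made up 57.9% of the summed level of the members in CTRL cells and 40.9% of that with pLVX-*RBP4*. These shares count *HDAC1* at 0 and leave out *HDAC10*. With *HDAC9* left out of the class and the sum, these shares were 45.5% and 39.6%.

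Members of the remaining classes were weakly expressed. *HDAC6* had 4.73 and 4.52 FPKM, a difference of -0.05. Its class IIb partner *HDAC10* had 7.79 and 7.47 FPKM, also a difference of -0.05. *HDAC11* was the lowest member above 0, with 2.40 and 2.67 FPKM and a difference of 0.11.

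The order of the members differed between the groups. In the CTRL group *HDAC9*, *HDAC2*, *HDAC7*, *HDAC5* and *HDAC3* followed each other from 54.8 to 36.8 FPKM, and in the pLVX-*RBP4* group *HDAC2*, *HDAC3*, *HDAC5* and *HDAC7* ran from 61.1 to 35.5 FPKM. The order of *HDAC7*, *HDAC5* and *HDAC3* was thus reversed, and *HDAC4*, above *HDAC6* in the CTRL group, stood below it in the pLVX-*RBP4* group. *HDAC8*, *HDAC4*, *HDAC6* and *HDAC11* lay below 8 FPKM in both groups. Whether neighbours in this order differ beyond the spread between libraries is not known.

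**Figure D2:**
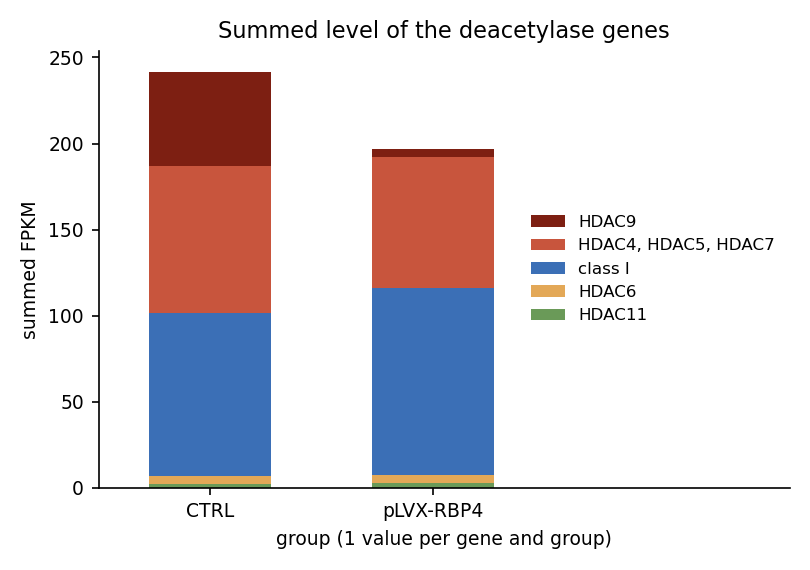
Summed FPKM of the members (vertical axis, linear from 0) in each group, stacked by class, with HDAC9 drawn apart from the other class IIa genes. The whole bars are 242 and 197 FPKM high, and the part of HDAC9 is the one that shrinks most.

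Summed over the members, the level was 242 and 197 FPKM, a ratio of 0.813. Without *HDAC9* the sums were 187 and 192 FPKM, a ratio of 1.03. The lower sum was thus carried by the deposited value of *HDAC9*, the gene chosen for its fall. For the other 8 members above 0, the higher class I and the lower class IIa genes nearly balanced, with 4 higher, 4 lower and a median difference of 0.028.

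Counted by direction, 4 of the 9 members above 0 had the higher value with pLVX-*RBP4* and 5 the lower. Over all 12382 genes with a mean of 1 FPKM or more, 50.2% were higher and 49.8% lower, so the members as a whole were split like the rest of the table. The median difference of the 9 members was -0.055, against 0.0014 over all these genes. It turned to 0.011 at equal sums, where the median of all genes was 0.072. Over members with a mean of 5 FPKM or more it was 0.0013, against 0.0095 over all such genes. *HDAC9* was the only member past 1.5-fold and past 2-fold. Among all genes, 1.49% were at least 1.5-fold higher and 1.28% as much lower, 2.77% in all, and 0.493% were at least 2-fold higher and 0.46% as much lower, 0.953% in all, but this is the contrast that led to the choice of *HDAC9*, and nothing is read from it. The other 8 members lay between -0.21 and 0.25, inside the range from -0.33 to 0.37 that held the middle 90% of all genes. The size of the difference was above that of 78.5% of genes for *HDAC2*, 70.5% for *HDAC4* and 66.5% for *HDAC7*, and below the median size of 0.13 for *HDAC3*, *HDAC5*, *HDAC6* and *HDAC11*.

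**Figure D3:**
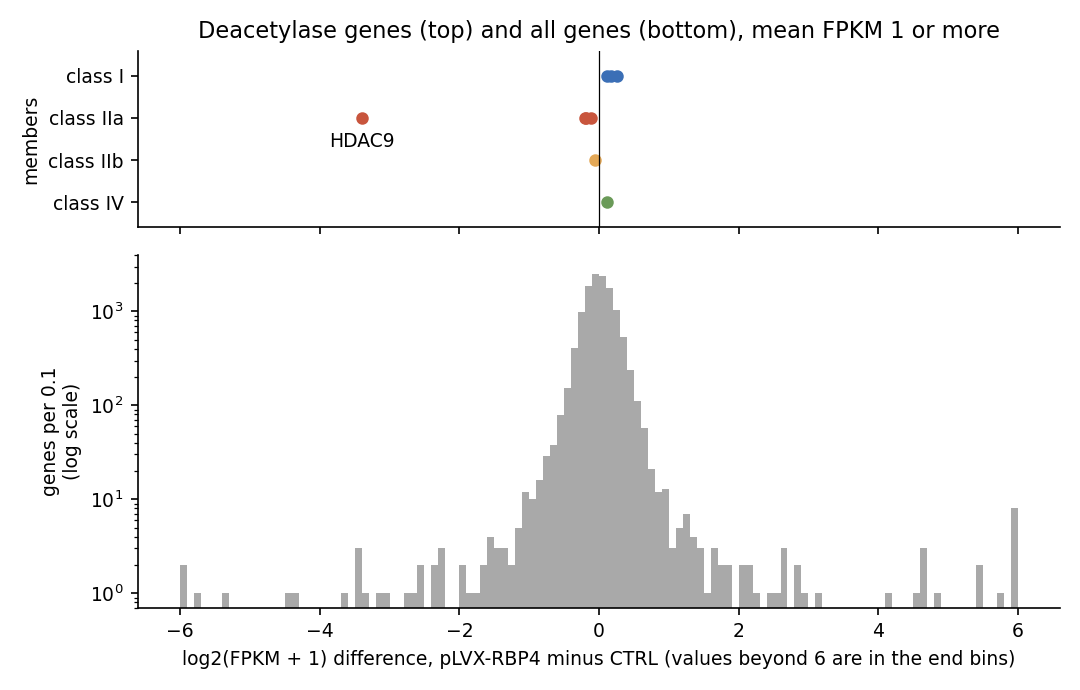
Difference in log2(FPKM + 1), pLVX-RBP4 minus CTRL (horizontal axis), for the members by class (top, 1 point per gene) and for the 12382 genes averaging 1 FPKM or more (bottom, genes per bin of 0.1, log scale, with values beyond 6 in the end bins). HDAC9 lies at -3.39, and the other 8 members lie in the central peak.

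The split between class I and class IIa was looked at under other ways of scaling the groups. With the sum of all values made equal (TPM), 64.9% of genes were higher with pLVX-*RBP4* in place of 50.2%, and 5 members were higher and 4 lower. *HDAC6* was the member that changed side, from -0.05 to 0.011. The class I genes and *HDAC11* stayed higher, and the 4 class IIa genes stayed lower, under each of the scalings and pseudocounts tried. This outcome was fixed in advance, and nothing is read from it. A pseudocount cannot change the sign of a difference. Each scaling raised the pLVX-*RBP4* values against CTRL, by at most 0.080 on the log2 scale. Higher genes could thus not turn lower, and the class IIa genes, at -0.12 or below, could not reach 0. *HDAC5* came nearest to 0 among the class IIa genes, with -0.041 at equal sums.

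**Figure D4:**
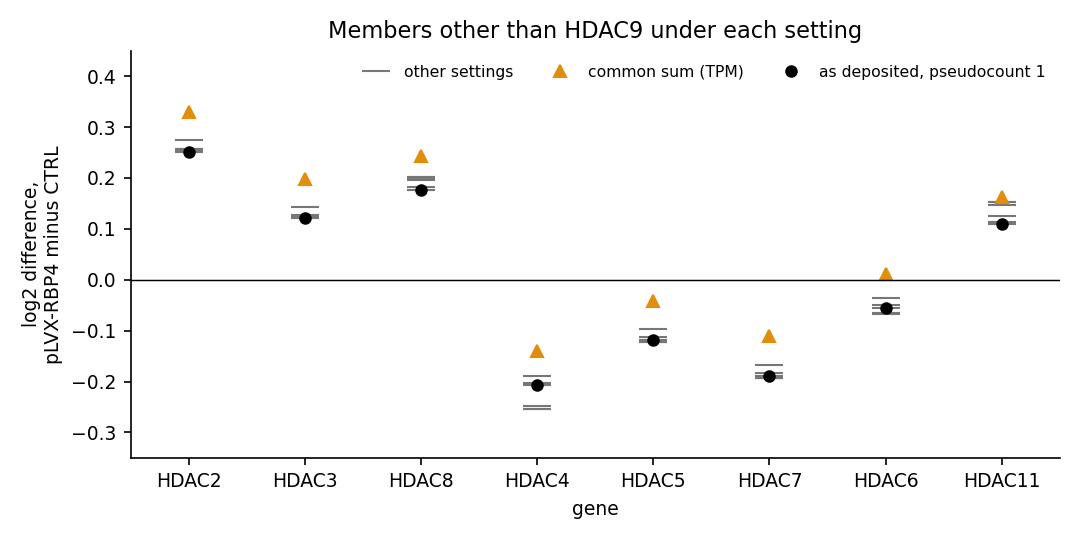
Log2 difference, pLVX-RBP4 minus CTRL (vertical axis), of each member other than HDAC9 and HDAC1. Black points are the reported values, orange triangles those after both groups were brought to a common sum, and grey dashes the other settings. Only the triangle of HDAC6 (0.011) is on the other side of 0 from its black point (-0.05).

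Genes beside *HDAC9* on the chromosome were compared with it. In RefSeq its nearest coding neighbours with a value here were *SNX13*, a sorting nexin, with 5.97 and 6.66 FPKM, and *AHR*, the aryl hydrocarbon receptor, with 10.4 and 11.3 FPKM. Both had the higher value with pLVX-*RBP4*, by 0.14 and 0.12. *TWIST1*, *FERD3L*, *TWISTNB* and *PRPS1L1*, the other neighbours looked up, were not found by symbol. *SNX13* and *AHR* lie on the same side of *HDAC9*, and no neighbour looked up on its other side had a value.

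The genes most like *HDAC9* were sought by their distance in both group values on the log2(FPKM + 1) scale. The nearest was ENSSSCG00000025950, with 28.2 and 5.30 FPKM, at a distance of 0.97. Next came ENSSSCG00000019350, with 22.3 and 7.52 FPKM, at a distance of 1.43. The other 3 of the 5 nearest genes were at distances of 1.48 to 1.81, and no symbol was found for any of the 5. With 2 values per gene this likeness describes levels only.

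HDAC complexes were described next, from lists of their subunits. Of the 34 subunits described for the 5 complexes, 13 were higher and 21 lower with pLVX-*RBP4*, against 50.2% and 49.8% of all genes. Their median difference was -0.046, against 0.0014 over all genes. At equal sums 19 were higher and 15 lower, with a median of 0.028. All genes then had a median of 0.072 with 64.9% higher, so the median of the subunits stayed below that of all genes. Past 1.5-fold were 0 subunits, against 2.77% of all genes. The 4 genes described for NCoR, the complex through which unliganded retinoic acid and thyroid hormone receptors repress their targets, were all lower. The corepressor *NCOR1* had 31.7 and 26.1 FPKM, a difference of -0.27. *TBL1XR1*, *GPS2* and *CORO2A* differed by -0.12, -0.09 and -0.06. *HDAC3* itself had a difference of 0.12, on the other side of 0 from these 4 genes.

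For the Sin3 complex, 5 of 11 genes were higher, against 50.2% of all genes, and the median difference was -0.00032. It was 0.0054, 0.021 and 0.076 at a common upper quartile, median and sum. The medians over all genes were then 0.0065, 0.0215 and 0.072. The scaffolds *SIN3A* (17.7 and 15.3 FPKM) and *SIN3B* (27.6 and 24.1 FPKM) differed by -0.20 and -0.19, and *SAP130* by -0.27. The small subunit *SAP18*, the most abundant, had 108 and 119 FPKM, a difference of 0.15, and *BRMS1L* and the histone chaperone *RBBP7* differed by 0.16 and 0.11.

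NuRD couples HDACs to a nucleosome remodelling ATPase. Of its 9 genes found, 6 were higher, against 50.2% of all genes, with a median difference of 0.0040. *MBD2*, which binds methylated DNA, had 59.2 and 70.0 FPKM, a difference of 0.24, and *CDK2AP1*, the most abundant, had 343 and 373 FPKM, a difference of 0.12. The ATPase *CHD3* had 52.1 and 44.1 FPKM, a difference of -0.23, *RBBP7*, which NuRD shares with Sin3, differed by 0.11, and *GATAD2A* and *MBD3* differed by -0.11 and -0.04.

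CoREST joins HDACs to the histone demethylase LSD1. Here 2 of 8 genes described were higher, against 50.2% of all genes, and the median difference was -0.11. *KDM1A*, which encodes LSD1, was the most abundant with 42.6 and 41.1 FPKM. *PHF21A* had 11.0 and 8.80 FPKM, a difference of -0.30, *RCOR1* had 9.92 and 8.07 FPKM, a difference of -0.27, *ZMYM2* differed by -0.21 and *GSE1* by -0.16. *RCOR3* differed by -0.05, and *ZMYM3* and *RCOR2* were higher by 0.03 and 0.02. At equal sums 4 of the 8 genes were higher, against 64.9% of all genes. For MiDAC, a complex active in dividing cells, *DNTTIP1* differed by 0.15, *MIDEAS* by -0.0029, which turned positive at each of the 3 scalings, and *TRERF1* by -0.25.

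For partners of the class IIa enzymes, namely MEF2 factors, kinases and 14-3-3 proteins, 11 of 16 genes were lower and 5 higher, with a median difference of -0.11, against 49.8% lower and a median of 0.0014 over all genes. The 3 MEF2 genes averaging 1 FPKM or more were all lower with pLVX-*RBP4*. *MEF2A* had 21.8 and 20.3 FPKM, *MEF2D* 18.9 and 16.7 FPKM, and *MEF2C* 15.6 and 13.3 FPKM, with differences of -0.09, -0.17 and -0.22. *MEF2B* was below 1 FPKM, with 0.918 and 0.602 FPKM. Of the 10 kinases that phosphorylate class IIa enzymes or belong to families that do, 2 were higher and 8 lower, with a median difference of -0.15. *PRKD2*, a protein kinase D, had 11.7 and 9.32 FPKM, a difference of -0.30, *CAMK1G* differed by -0.27 and *MARK2* by -0.24. *MARK3*, the most abundant, had 51.1 and 47.8 FPKM, and the higher genes *CAMK1* and *CAMK2D* differed by 0.09 and 0.03. *CAMK1D* was listed at 0 in both groups, and *CAMK2A* was below 1 FPKM. Of 7 listed 14-3-3 genes, 3 were found by symbol, and all 3 were higher, against 50.2% of all genes. They were *YWHAZ* (325 and 336 FPKM), *YWHAH* (184 and 199.8 FPKM) and *YWHAB* (141 and 146 FPKM), with differences of 0.04 to 0.12. From a list of 5 MEF2 targets only *KLF4* was found, with 16.4 and 15.7 FPKM, a difference of -0.06. At equal sums it turned to 0.015, where the median over all genes was 0.072.

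Enzymes with the opposite activity and the readers of acetylated histones were set beside the HDACs. Of 12 lysine acetyltransferase genes, 2 were higher and 10 lower, with a median difference of -0.093. Over all genes 49.8% were lower and the median was 0.0014. *HAT1*, which acetylates new histones before they are deposited, had 14.3 and 18.9 FPKM, a difference of 0.38 and the largest in any list of partners. *NAA60*, the most abundant, had 29.7 and 34.9 FPKM, a difference of 0.23. The transcriptional coactivators *EP300* (18.7 and 15.3 FPKM) and *CREBBP* (11.7 and 9.48 FPKM) differed by -0.27 and -0.28, and *KAT7* by -0.32. Among the BET readers, *BRD3* had 27.1 and 22.0 FPKM, a difference of -0.29, and *BRD2* had 66.4 and 62.9 FPKM, a difference of -0.08. At equal sums 8 of the 12 acetyltransferase genes and 1 of these 2 BET genes, *BRD3*, were lower. Of all genes, 35.1% were then not higher.

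The sirtuins, or class III deacetylases, depend on NAD and are unrelated in structure to the HDACs. Of the 7, 3 were found by symbol. *SIRT1* had 4.59 and 5.47 FPKM, a difference of 0.21, *SIRT6* 7.33 and 7.63 FPKM, a difference of 0.05, and *SIRT4* 1.21 and 1.13 FPKM, a difference of -0.06.

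**Figure D5:**
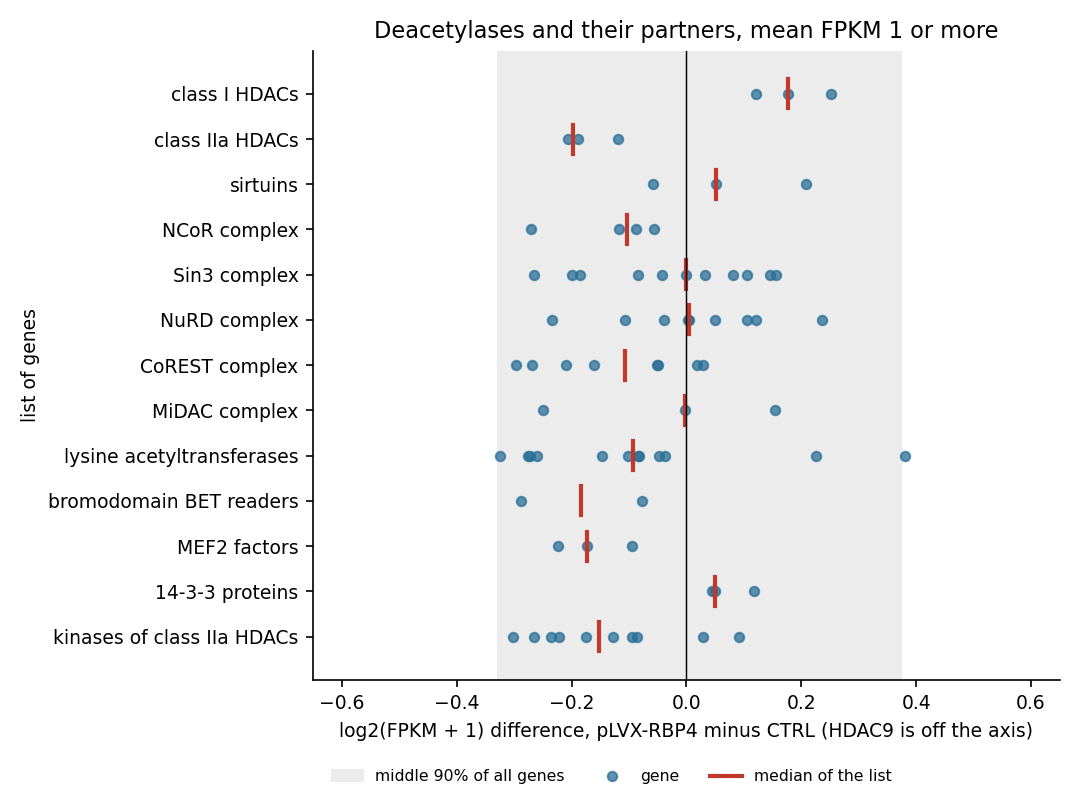
Difference in log2(FPKM + 1), pLVX-RBP4 minus CTRL (horizontal axis), for class I and class IIa HDACs and 11 lists of their partners. Points are genes averaging 1 FPKM or more, red lines the medians of the lists, and the grey band the middle 90% of all genes (-0.33 to 0.37). HDAC9 is off the axis but counted in its median. Apart from HDAC9, only HAT1 (0.38) lies outside the band, close to its edge.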

How the data were processed

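RNA of 3 libraries per group was sequenced. According to the study's methods, paired-end reads from NEBNext Ultra libraries were aligned to Sscrofa10.2 with TopHat2, levels were calculated as FPKM, and groups were compared with Cuffdiff. The authors' deposited table holds 1 FPKM value per gene and group, and which program wrote it is not given in the sources used here. Software versions, the annotation release and strand handling are not given in the sources used here. The 2 value columns were used and 0 left out. Depth per library cannot be read from FPKM, and the study lists more mapped reads for the pLVX-*RBP4* libraries.

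Differences were computed as log2(FPKM + 1), pLVX-*RBP4* minus CTRL, and counts were taken over genes with a mean of 1 FPKM or more. Without values per library no model was fitted. Symbols were found for 10757 genes, 10489 of them in a table of Ensembl names and the rest in the study's supplementary lists, from which coordinates of *HDAC9* were also taken. Subunits and partners came from 25 lists of genes, all markers included, and some genes of these lists are not reported here. The members and lists were chosen with earlier results of these data known. Lists of partners with up to 8 genes found are named in full, and for longer ones the 3 largest differences each way and the most abundant gene. Marker lists are given by their sums instead, with some markers named, a departure from the rule as planned. The 5 genes nearest to *HDAC9* were taken by distance. Neighbours followed the gene order of RefSeq. Alternatives were pseudocounts of 0.1 and 0.01, no filter or a mean of 5 FPKM, and scaling to a common median, upper quartile or sum. Python 3.11.15, numpy 2.4.6, pandas 2.3.3 and matplotlib 3.10.9 were used.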

Additional observations from a re-analysis of the deposited data

How the results depend on the processing

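Of 249 recomputed values for members and lists, 242 stayed within 0.1 on the log2 scale, or within 1.5 times for a count, a limit set with the values known. Many could hardly have passed it. The scalings shifted the groups against each other by at most 0.080, and adding *HDAC10* left all values of single genes and partner lists unchanged. Small values that changed sign, as for *HDAC6* at equal sums, were counted as within the limit. The difference of *HDAC9* was -3.63 with a pseudocount of 0.1, -3.66 with 0.01, and -3.66 as a log2 ratio without a pseudocount, a setting added after seeing the data. With a mean of 5 FPKM or more, 3 members were higher and 3 lower, because *HDAC4*, *HDAC6* and *HDAC11* were no longer counted. With *HDAC10* added, also chosen after seeing the data, 4 were higher and 6 lower. The number of genes at least 2-fold higher and lower was 61 and 57, or 95 and 103 with a pseudocount of 0.1, 105 and 112 with 0.01, and 38 and 25 with a mean of 5 FPKM or more. At least 1.5-fold, 184 were higher and 159 lower, or 290 and 266, 313 and 283, and 100 and 68 under the same settings. With no pseudocount, 87 were at least 2-fold lower, and 288 and 259 at least 1.5-fold higher and lower. No paired analysis was possible because the table holds 1 value per gene and group, and for the same reason no replicate could be left out. Depth per library cannot be read from these values, so it is not known how few reads lie behind the weakest members, *HDAC11*, *HDAC4* and *HDAC6*. The same limit holds for *HDAC9* in the pLVX-*RBP4* group, at 4.32 FPKM.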
